A study of Mus musculus with 6 samples.

Results

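B16-F1R2L and B16-F1R2 are sister lines of the mouse melanoma B16, and all genes that either line expressed were compared between them. A gene entered the comparison when it reached 1 FPKM (fragments for each kilobase of transcript in 1000000 mapped reads) in at least 2 of the 4 libraries of the 2 lines, and symbols beginning with Mir, Snor, Scarna or Rnu were left out. This gave 11093 of the 23951 genes in the table (46.3%), and 94 small RNA symbols that also passed the level were left out. By the labels, B16-F1R2 came from a lymph node metastasis. B16-F1R2L is labelled as a line from a lung metastasis that itself derived from a lymph node metastasis. Both came from 1 laboratory, and B16-F1, the line of low metastatic potential from a cell repository, served as a further point of reference and entered the shared estimate of error. All cells were untreated, grew in high glucose DMEM with fetal bovine serum, and gave polyadenylated RNA for a stranded kit. Each line has 2 libraries, each kind of metastasis is represented by 1 line, and the labels leave unsaid if the libraries stem from independent cultures, so the p-values measure only the spread between these libraries, which may be technical. What belongs to a site of metastasis and what belongs to 1 line cannot be told apart.

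The gene group that stood farthest from the rest belongs to the amino acid response. When an amino acid runs short or unfolded protein collects in the endoplasmic reticulum (ER), kinases phosphorylate the initiation factor eIF2, general translation slows, and the mRNA of the transcription factor ATF4 is translated more. ATF4 then pairs with C/EBP proteins on promoters of genes for amino acid synthesis, import and tRNA charging, and of stress regulators such as CHOP (Ddit3) and TRIB3. In pigment cells the factor MITF drives the genes of melanin synthesis, and melanoma lines differ widely in how much of that programme they keep.

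The melanocyte label was checked first. All 7 melanocyte markers (Mitf, Sox10, Tyr, Tyrp1, Dct, Pmel and Mlana) were above 1 FPKM in every library, and their summed level was 7909 to 8125 FPKM in B16-F1R2 and 8924 to 8933 FPKM in B16-F1R2L. Markers of lung epithelium (6 genes), keratinocytes (4) and erythroid cells (3) held no member, and the 6 lung markers summed to at most 1.12 FPKM in B16-F1R2L and 0.850 FPKM in B16-F1R2. Of 8 leukocyte markers, Ptprc, Cd3e and Itgam were at 0 in all 4 libraries, and the summed level of 14.7 to 15.5 FPKM in B16-F1R2 and 20.2 to 20.3 FPKM in B16-F1R2L was mostly Cd79a. The 6 endothelial markers summed to 1.55 to 1.72 FPKM in B16-F1R2 and 2.25 to 2.38 FPKM in B16-F1R2L, with Cdh5, Kdr and Lyve1 at 0.

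The scale of comparison was log2(FPKM + 0.1). The test was limma, a linear model that moderates each gene's variance, and a gene is called when its Benjamini-Hochberg adjusted p is under 0.05 over the 11379 genes tested. Of the members, 1359 (12.3%) were higher and 1175 (10.6%) lower in B16-F1R2L. Over all genes tested 22.6% were called, 12.1% as higher and 10.5% as lower, and these shares are the background against which each gene group is read. Most differences were small. The median size of the difference was 0.153 on the log2 scale, against a median difference between libraries of 1 line of 0.0836 in B16-F1R2 and 0.0934 in B16-F1R2L. A log2 fold change of at least 1 in size was reached by 105 of the genes that rose and 14 of those that fell. The libraries of the lines did not overlap, with B16-F1R2L higher, for 35.9% of the genes tested, and with B16-F1R2L lower for 29.2%. No called member overlapped between the lines. As each line has 2 libraries, a call draws its estimate of error from many genes at once. Among the members, 134 passed the level through B16-F1R2L alone (54 called) and 35 through B16-F1R2 alone (11 called), and these had to differ by the way they were chosen.

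**Figure D1:**
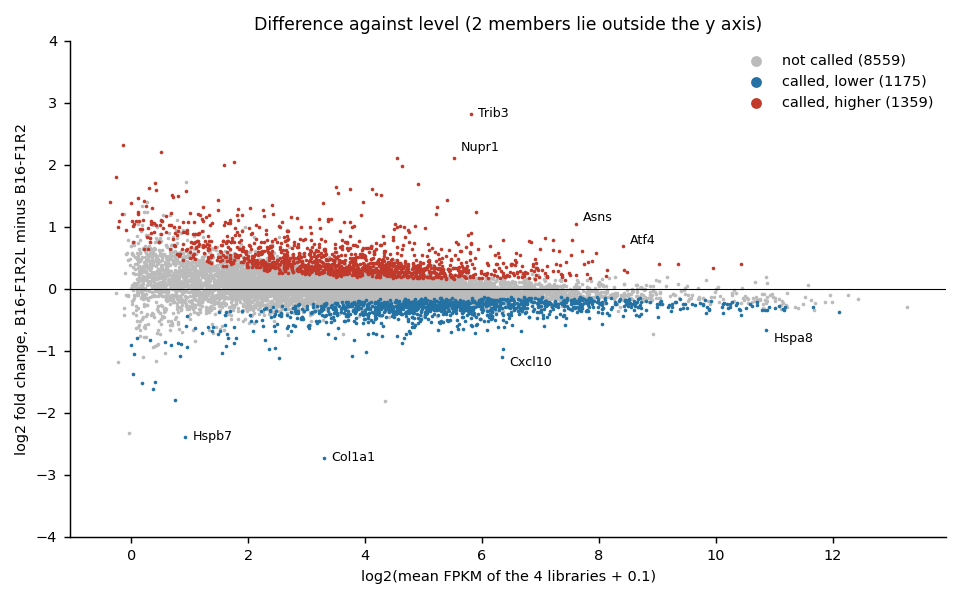
Log2 fold change of each member (y axis, B16-F1R2L minus B16-F1R2 on the log2(FPKM + 0.1) scale) against the log2 of its mean FPKM over the 4 libraries (x axis), with called genes in color. The 1359 higher genes spread over all levels and Trib3 lies far above the rest of its level, the 1175 lower genes lie mostly at high levels, and 2 members lie outside the y axis.

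Scaling and single libraries move these counts. The deposited FPKM sum to less in B16-F1R2L than in B16-F1R2, and rescaling every library to a sum of 1000000 moved the median difference of the members from 0.0218 to 0.129 and the called genes from 53.6% to 81.2% higher (2055 higher, 476 lower). Without B16-F1R2 replicate 1 there were 284 higher and 133 lower genes, without B16-F1R2L replicate 2 there were 322 and 203, and without B16-F1R2 replicate 2 there were 617 and 595. Where a count of a gene group is given with a library left out, the first value is without B16-F1R2 replicate 1 and the second without B16-F1R2L replicate 2, the libraries with the strongest effect on the totals.

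The genes of the amino acid and ATF4 response rose together. Of its 37 members, 33 were higher, none was lower, and the median log2 fold change was 0.78, against 0.0218 over all members. The count was between 27 and 36 under the 19 alternative settings that set no minimum size, with a median between 0.74 and 0.89, and 14 of the genes reached a log2 fold change of 1. The 4 members that were not called, Phgdh, Cth, Wars and Mars, also had positive values.

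The regulators of the response come first. Atf4, which encodes its central transcription factor, had 267 and 256 FPKM in the B16-F1R2 libraries and 411 and 426 FPKM in the B16-F1R2L libraries (log2 fold change 0.68, standard error 0.05, adjusted p = 0.0015). Both B16-F1R2L libraries lay above both others, and B16-F1 had 305 and 288 FPKM. Ddit3, which encodes the stress factor CHOP, had 37.6 and 33.6 FPKM in the B16-F1R2 libraries and 81.5 and 86.2 FPKM in the B16-F1R2L libraries (log2 fold change 1.24, standard error 0.07, adjusted p = 0.00089). Atf5, a related factor, had 21.5 and 21.1 FPKM in the B16-F1R2 libraries and 51.2 and 55.8 FPKM in the B16-F1R2L libraries (log2 fold change 1.32, standard error 0.08, adjusted p = 0.00093). These genes lay above their B16-F1 levels in B16-F1R2L and below them in B16-F1R2, B16-F1 holding 48.8 and 44.4 FPKM for Ddit3 and 33.5 and 28.9 FPKM for Atf5. Among the C/EBP partners of ATF4, Cebpb rose by 1.20 (adjusted p = 0.0077) and Cebpg by 1.12 (adjusted p = 0.0028) on the log2 scale.

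Trib3 changed most among the called genes of at least 5 FPKM whose values were above 0 in every library. It encodes a pseudokinase that binds AKT and ATF4 and is a standard target of the response, and it lies on chromosome 2 from 152163158 to 152169768 on the minus strand (NCBIM37, the assembly mm9 names). Its level was 13.6 and 13.996 FPKM in the B16-F1R2 libraries and 97.4 and 99.1 FPKM in the B16-F1R2L libraries (log2 fold change 2.83, standard error 0.05, adjusted p = 2.6e-06), 7.09-fold higher in B16-F1R2L. The libraries of each line were close to each other, and B16-F1 lay between the other 2 lines with 26.97 and 25.9 FPKM. Nupr1, a small stress-induced chromatin protein, had 17.2 and 17.2 FPKM in the B16-F1R2 libraries and 71.6 and 77.3 FPKM in the B16-F1R2L libraries (log2 fold change 2.11, standard error 0.12, adjusted p = 0.00083), and its B16-F1 level of 13.9 and 10.6 FPKM was below both. Chac1, an enzyme that degrades glutathione, had 9.12 and 8.34 FPKM in the B16-F1R2 libraries and 39.1 and 36.5 FPKM in the B16-F1R2L libraries (log2 fold change 2.10, standard error 0.11, adjusted p = 0.00069). Its order was that of Trib3, with B16-F1 between at 28.4 and 22.9 FPKM.

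Inhibitors of mTORC1 signaling were in the same group. Sesn2, a leucine sensor that restrains mTORC1, had 5.49 and 6.16 FPKM in the B16-F1R2 libraries and 17.4 and 16.9 FPKM in the B16-F1R2L libraries (log2 fold change 1.54, standard error 0.08, adjusted p = 0.0007). Ddit4, which encodes the mTORC1 inhibitor REDD1, had 8.93 and 8.10 FPKM in the B16-F1R2 libraries and 22.02 and 22.96 FPKM in the B16-F1R2L libraries (log2 fold change 1.39, standard error 0.07, adjusted p = 0.00069). For both genes the B16-F1R2L values were over those of all other libraries. Gdf15, a secreted stress cytokine, had 23.5 and 22.2 FPKM in the B16-F1R2 libraries and 65.7 and 57.97 FPKM in the B16-F1R2L libraries (log2 fold change 1.43, standard error 0.09, adjusted p = 0.00089) and only 0.139 and 0.144 FPKM in B16-F1. Ppp1r15a, the phosphatase subunit that reverses eIF2 phosphorylation, rose by 0.54 (adjusted p = 0.0096), and Eif4ebp1, a repressor of cap-dependent translation, rose by 0.45 (adjusted p = 0.0088).

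**Figure D2:**
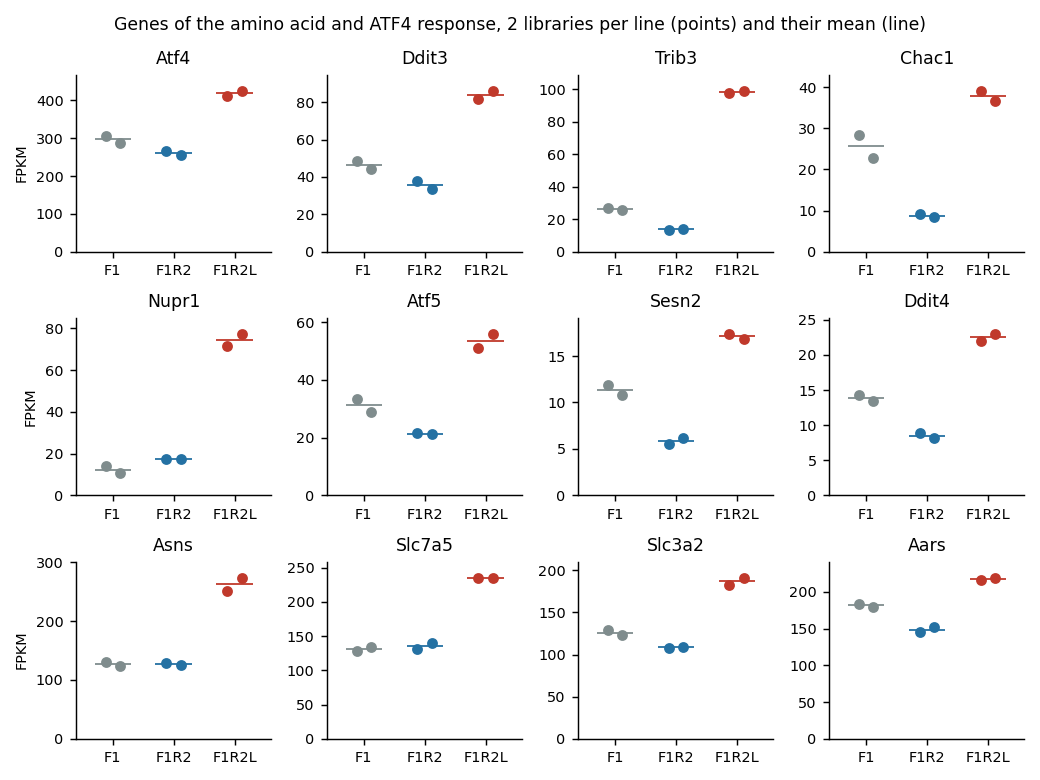
FPKM (y axis, linear from 0) of 12 genes of the amino acid and ATF4 response in the 2 libraries of each line (x axis), with points for libraries and a line for their mean. In each of the 12 panels both B16-F1R2L libraries lie above all others, and Trib3 reaches 97.4 and 99.1 FPKM.

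Enzymes that make amino acids and transporters that import them were also higher. Asns, asparagine synthetase, had 129 and 126 FPKM in the B16-F1R2 libraries and 251 and 274 FPKM in the B16-F1R2L libraries (log2 fold change 1.04, standard error 0.06, adjusted p = 0.0007), and B16-F1 was at the level of B16-F1R2 with 130.5 and 124 FPKM. Aldh18a1, which acts in proline synthesis, rose by 0.90 (adjusted p = 0.00072). Pycr1, of the same pathway, had 0.849 and 0.692 FPKM against 2.26 and 2.35 FPKM. It is 1 of the 33 called higher, but it passed the level through B16-F1R2L alone and so had to be higher. In serine synthesis and use, Psph rose by 0.58, Psat1 by 0.24 and Shmt2 by 0.40, while Phgdh, the first enzyme of the synthesis, had a log2 fold change of 0.06 and did not pass the test (adjusted p = 0.41). Mthfd2, the mitochondrial folate enzyme, had 98.5 and 97.8 FPKM in the B16-F1R2 libraries and 165 and 182 FPKM in the B16-F1R2L libraries (log2 fold change 0.82, standard error 0.06, adjusted p = 0.0014).

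Of the 17 members among amino acid transporters (symbols Slc1a, Slc7a and Slc38a, and Slc3a2), a family grouped after the values were seen, 11 rose and 1, Slc7a6os, a neighbor gene that is no transporter, fell (with a library left out, 8 and 6 rose and none fell). At least Slc7a11 of this family also belongs to the amino acid and ATF4 list, so the counts share genes. Slc7a5 and Slc3a2 encode the 2 chains of the leucine transporter LAT1. Slc7a5 had 131 and 141 FPKM in the B16-F1R2 libraries and 236 and 235 FPKM in the B16-F1R2L libraries (log2 fold change 0.79, standard error 0.05, adjusted p = 0.001). Slc3a2 had 108 and 109.5 FPKM in the B16-F1R2 libraries and 183 and 191 FPKM in the B16-F1R2L libraries (log2 fold change 0.78, standard error 0.05, adjusted p = 0.00087). Both chains were higher in both B16-F1R2L libraries. Slc1a4, a neutral amino acid exchanger, had 9.81 and 10.1 FPKM in the B16-F1R2 libraries and 28.6 and 28.7 FPKM in the B16-F1R2L libraries (log2 fold change 1.51, standard error 0.05, adjusted p = 8.5e-05). Slc7a11, the cystine importer, had 1.95 and 2.55 FPKM in the B16-F1R2 libraries and 5.11 and 6.29 FPKM in the B16-F1R2L libraries (log2 fold change 1.31, standard error 0.17, adjusted p = 0.0075), a level near the 5.62 and 4.70 FPKM of B16-F1.

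The cytosolic aminoacyl-tRNA synthetases, which load tRNAs with amino acids, were split. Of 20 members 10 rose and 3 fell (with a library left out, 5 and 10 rose and none fell). At least Aars, Gars, Wars and Mars also belong to the amino acid and ATF4 list, so these counts share genes. Aars, alanyl-tRNA synthetase, had 145 and 152 FPKM in the B16-F1R2 libraries and 216 and 219 FPKM in the B16-F1R2L libraries (log2 fold change 0.55, standard error 0.04, adjusted p = 0.0018), and Cars rose by 0.73, Sars by 0.65 and Gars by 0.57. Kars, the lysyl enzyme, had 171 and 159.7 FPKM in the B16-F1R2 libraries and 136 and 128 FPKM in the B16-F1R2L libraries (log2 fold change -0.33, standard error 0.05, adjusted p = 0.012), and Farsa and Hars had log2 fold changes of -0.29 and -0.24, the call of Hars being lost in 9 of 20 alternatives. Of the 17 mitochondrial synthetases none rose and 2 fell (11.8%, near the 10.5% of all genes tested), and none fell with either library left out. Both families were grouped after the values were seen.

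Promoters of this group are shown because the response is known to act through a composite C/EBP and ATF element. The letters TGATGNAA were searched on both strands in the 250 bases before each RefSeq start site (GRCm38.p6), a build other than that of the FPKM. Of the 37 members, 29 had a promoter in the set used and 7 of them (24.1%) held the letters. The share was 2.32% over the 8489 members with a promoter and 3.91% over all 27025 genes with one. It was 3.04% over the 1020 members with a promoter that were higher outside the list, and 1.32% over the 912 that were lower. A match is a description of the letters and not a measured site. In 5 of the 7, printed 5′ to 3′ on the strand of the gene with the matching letters in capitals, the stretch of 120 bases around the first match lies at chr2:119350993-119351112 (plus strand) for Chac1, chr7:126625517-126625636 (minus strand) for Nupr1, chr6:7693210-7693329 (minus strand) for Asns, chr11:120643788-120643907 (minus strand) for Pycr1 and chr3:50443616-50443735 (minus strand) for Slc7a11.
Chac1: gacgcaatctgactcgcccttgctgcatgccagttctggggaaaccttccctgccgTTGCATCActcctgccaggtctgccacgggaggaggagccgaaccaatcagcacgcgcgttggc
Nupr1: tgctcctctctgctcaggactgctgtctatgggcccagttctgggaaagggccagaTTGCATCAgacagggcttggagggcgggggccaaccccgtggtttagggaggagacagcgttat
Asns: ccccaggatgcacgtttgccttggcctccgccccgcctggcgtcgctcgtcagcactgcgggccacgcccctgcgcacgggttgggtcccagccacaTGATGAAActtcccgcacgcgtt
Pycr1: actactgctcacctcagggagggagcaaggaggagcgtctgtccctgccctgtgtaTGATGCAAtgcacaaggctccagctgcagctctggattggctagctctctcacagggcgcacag
Slc7a11: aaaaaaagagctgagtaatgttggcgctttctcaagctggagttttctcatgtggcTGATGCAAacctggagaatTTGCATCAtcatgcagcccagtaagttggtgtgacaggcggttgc
The first match begins 193 bases before the start in Chac1, 110 in Nupr1, 23 in Asns, 103 in Pycr1 and 66 in Slc7a11. Slc7a11 holds 2 matches on opposite strands. The other 2 genes with the letters were Aars and Gars. Trib3, Ddit3 and Atf4 were not among the genes that held them.

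Outside this list, large increases were found among other metabolic and stress genes. Pck2, mitochondrial phosphoenolpyruvate carboxykinase, had 13.8 and 14.3 FPKM in the B16-F1R2 libraries and 42.97 and 47.7 FPKM in the B16-F1R2L libraries (log2 fold change 1.68, standard error 0.07, adjusted p = 0.00018). Gpt2, mitochondrial alanine transaminase, had 8.61 and 8.23 FPKM in the B16-F1R2 libraries and 24.1 and 27.6 FPKM in the B16-F1R2L libraries (log2 fold change 1.60, standard error 0.08, adjusted p = 0.00058). The libraries of the 2 lines were apart for both genes. Txnip, which restrains glucose uptake and binds thioredoxin, had 5.31 and 5.51 FPKM in the B16-F1R2 libraries and 15.2 and 19.002 FPKM in the B16-F1R2L libraries (log2 fold change 1.63, standard error 0.17, adjusted p = 0.004), against 12.2 and 16.999 FPKM in B16-F1. Soat2, an enzyme that esterifies cholesterol, had 1.24 and 1.21 FPKM in the B16-F1R2 libraries and 5.27 and 5.44 FPKM in the B16-F1R2L libraries (log2 fold change 2.04, standard error 0.25, adjusted p = 0.0066). G0s2, an inhibitor of the lipase ATGL, had 8.96 and 9.44 FPKM in the B16-F1R2 libraries and 27.6 and 25.99 FPKM in the B16-F1R2L libraries (log2 fold change 1.53, standard error 0.21, adjusted p = 0.0082). Nr4a3, an orphan nuclear receptor, had 6.86 and 6.19 FPKM in the B16-F1R2 libraries and 19.2 and 21.05 FPKM in the B16-F1R2L libraries (log2 fold change 1.61, standard error 0.08, adjusted p = 0.00058). Neat1, the long noncoding RNA of paraspeckles, had 7.88 and 11.97 FPKM in the B16-F1R2 libraries and 31.7 and 47.2 FPKM in the B16-F1R2L libraries (log2 fold change 1.98, standard error 0.26, adjusted p = 0.0076), with a wide gap between the libraries of each line. Gm12238, a predicted gene, was listed at 0 in each of the B16-F1R2 libraries, and at 20.9 and 19.8 FPKM in B16-F1R2L. It was also listed at 0 in 1 B16-F1 library and at 19.2 FPKM in the other, its call was lost in 9 of 19 alternatives, and it passed the level through B16-F1R2L alone.

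**Figure D3:**
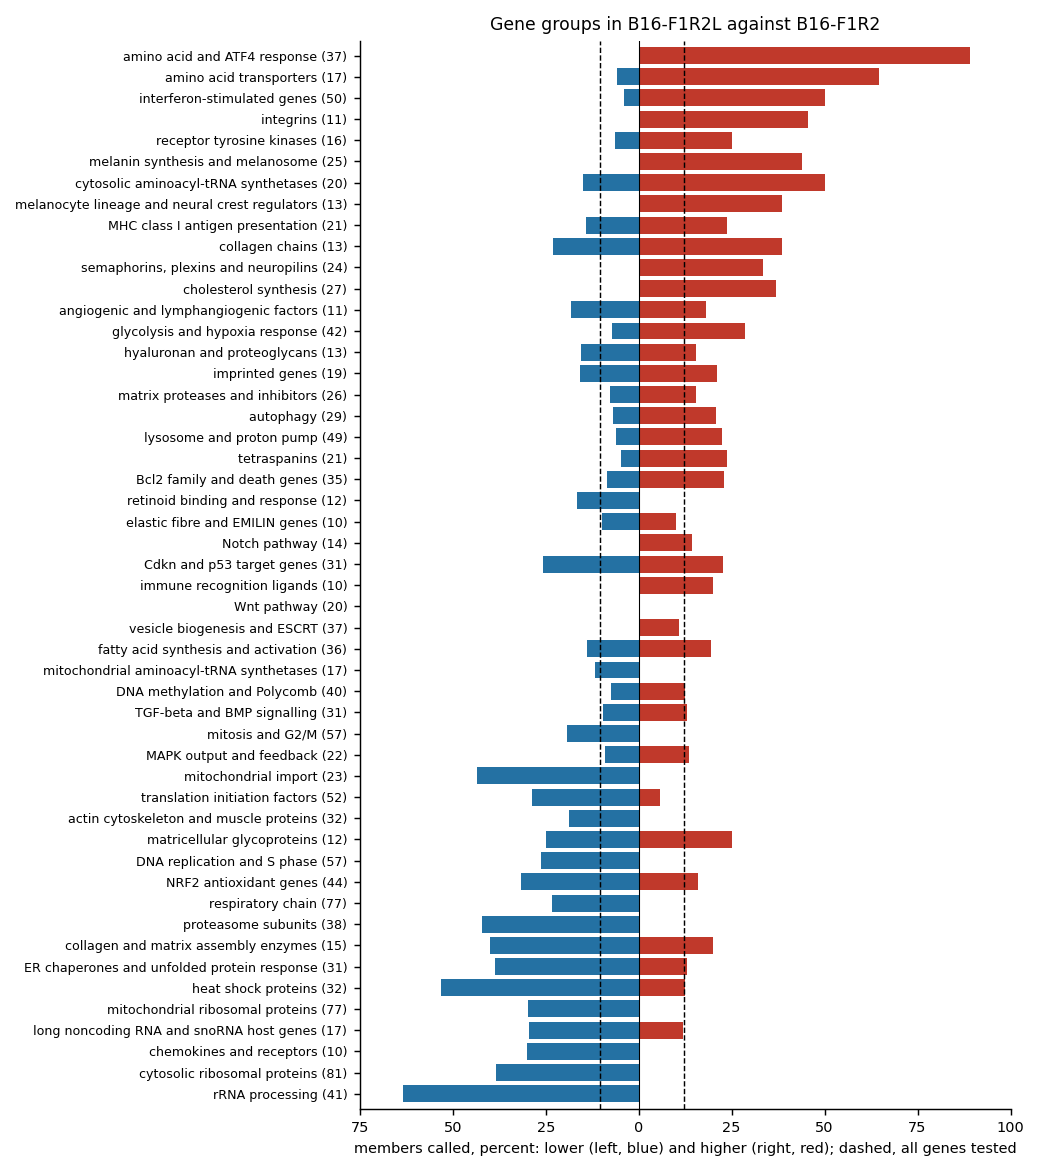
Percent of members called lower (bars to the left) and higher (bars to the right) in B16-F1R2L for gene groups with at least 10 members (member number in brackets), ordered by median log2 fold change. Dashed lines mark the 10.5% lower and 12.1% higher of all genes tested, and the amino acid and ATF4 response at the top and rRNA processing at the bottom reach farthest beyond them.

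Pigment genes rose in part in B16-F1R2L. Of 25 members of melanin synthesis and the melanosome, 11 rose and none fell, with a median log2 fold change of 0.22, and the count was 5 without B16-F1R2 replicate 1, 4 without B16-F1R2L replicate 2 and 20 after rescaling to a common sum. Mitf, the master regulator, had 79.5 and 83.6 FPKM in the B16-F1R2 libraries and 112 and 127 FPKM in the B16-F1R2L libraries (log2 fold change 0.55, standard error 0.07, adjusted p = 0.0066). Tyr, the enzyme that starts melanin synthesis, had 14.7 and 14.2 FPKM in the B16-F1R2 libraries and 22.4 and 25.1 FPKM in the B16-F1R2L libraries (log2 fold change 0.71, standard error 0.06, adjusted p = 0.0028). The Tyr levels of both lines stayed far below the 192 and 186 FPKM of B16-F1. Dct, which acts later in the pathway, had 1203 and 1198 FPKM in the B16-F1R2 libraries and 1542 and 1606 FPKM in the B16-F1R2L libraries (log2 fold change 0.39, standard error 0.05, adjusted p = 0.0082). Mc1r, the melanocortin receptor, rose by 0.58 (adjusted p = 0.0019) and Trpm1, a cation channel and MITF target, by 0.54 (adjusted p = 0.0046). Tyrp1 had a log2 fold change of 0.10 that did not pass the test (adjusted p = 0.23). Among 13 lineage regulators 5 rose (1 and 1 with a library left out), and Snai2, a neural crest factor, rose by 0.89 (adjusted p = 0.011) at a low level of 1.23 and 1.51 FPKM against 2.55 and 2.66 FPKM.

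Many interferon-stimulated genes rose, while 2 genes of the same list fell. Of 50 members 25 rose and 2 fell, with a median of 0.40, and the number higher was 30 after rescaling, 18 after cyclic loess, 8 without B16-F1R2 replicate 1 and 5 without B16-F1R2L replicate 2, the last 2 with medians of 0.38 and 0.37. Stat2, a transcription factor of the interferon response, rose by 0.64 (adjusted p = 0.011) and Irf9 by 0.57 (adjusted p = 0.011). Usp18, which removes ISG15 from proteins and dampens the response, had 7.63 and 8.51 FPKM in the B16-F1R2 libraries and 14.2 and 16.6 FPKM in the B16-F1R2L libraries (log2 fold change 0.92, standard error 0.13, adjusted p = 0.0088). Ifitm3, an antiviral membrane protein, had 76.7 and 89.2 FPKM in the B16-F1R2 libraries and 145 and 136 FPKM in the B16-F1R2L libraries (log2 fold change 0.76, standard error 0.08, adjusted p = 0.0038). All these genes were higher in both B16-F1R2L libraries. Cxcl10, a chemokine that attracts T cells, went the other way with 107 and 113 FPKM in the B16-F1R2 libraries and 55.9 and 47.1 FPKM in the B16-F1R2L libraries (log2 fold change -1.10, standard error 0.08, adjusted p = 0.0018), and B16-F1 had 8.01 and 8.37 FPKM. Ifit1, an RNA-binding antiviral protein, had 9.67 and 9.82 FPKM in the B16-F1R2 libraries and 5.83 and 7.09 FPKM in the B16-F1R2L libraries (log2 fold change -0.59, standard error 0.12, adjusted p = 0.022), a call lost in 6 of 20 alternatives. Of the 10 chemokine and receptor members none rose and 3 fell (1 and 1 with a library left out), and Ccl5 and Ccl25 fell as well, with log2 fold changes of -0.42 (adjusted p = 0.014) and -0.47 (adjusted p = 0.027).

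Some genes of antigen presentation by MHC class I were called in each direction. Of 21 members 5 rose and 3 fell (with a library left out, 2 and 2 rose and 2 and 1 fell), and the share that fell, 14.3%, is near the 10.5% of all genes tested. B2m, the light chain of all class I molecules, had 459 and 446 FPKM in the B16-F1R2 libraries and 583 and 602 FPKM in the B16-F1R2L libraries (log2 fold change 0.39, standard error 0.04, adjusted p = 0.0053). H2-K1, a heavy chain, had 71.7 and 68.7 FPKM in the B16-F1R2 libraries and 97.9 and 88.8 FPKM in the B16-F1R2L libraries (log2 fold change 0.41, standard error 0.06, adjusted p = 0.0087), and H2 genes are near-identical, so that their reads may be shared. Psmb10, a subunit of the immunoproteasome, had 19.02 and 16.5 FPKM in the B16-F1R2 libraries and 9.34 and 10.7 FPKM in the B16-F1R2L libraries (log2 fold change -0.82, standard error 0.09, adjusted p = 0.0051), and Calr, a chaperone that helps to load peptides, had a log2 fold change of -0.37 (adjusted p = 0.0096).

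Matrix genes included the largest decrease among the called genes. Col1a1, the major chain of type I collagen, lies on chromosome 11 from 94797538 to 94814356 on the plus strand and had 16.8 and 17.1 FPKM in the B16-F1R2 libraries and 2.81 and 2.19 FPKM in the B16-F1R2L libraries (log2 fold change -2.73, standard error 0.17, adjusted p = 0.001). B16-F1 had 0.226 and 0.311 FPKM, so the level of B16-F1R2L lay between those of B16-F1 and B16-F1R2. Col1a2, the other chain of this collagen, had 1.13 and 1.04 FPKM in the B16-F1R2 libraries and 1.77 and 2.17 FPKM in the B16-F1R2L libraries (log2 fold change 0.80, standard error 0.18, adjusted p = 0.028), the opposite direction at a low level, and this call was lost in 6 of 19 alternatives. Of 13 collagen chains 5 rose and 3 fell, with a median of 0.18. Among the 5, Col9a1 and Col20a1 passed the level through B16-F1R2L alone, and among the 3, Col8a1 passed it through B16-F1R2 alone, so that these genes had to differ. None rose without B16-F1R2 replicate 1, without B16-F1R2 replicate 2 or without B16-F1R2L replicate 2, and 2 fell in each case. After cyclic loess 1 rose and 3 fell, and after quantile normalization 3 rose and 4 fell, with a median of -0.02. Col5a1, which joins type I fibrils, had 19.3 and 21.7 FPKM in the B16-F1R2 libraries and 12.8 and 11.7 FPKM in the B16-F1R2L libraries (log2 fold change -0.73, standard error 0.09, adjusted p = 0.0056), and Col8a1 had 1.65 and 2.08 FPKM in the B16-F1R2 libraries and 0.535 and 0.643 FPKM in the B16-F1R2L libraries. Hapln1, which links hyaluronan to proteoglycans, had a standard error of 0.19 for its log2 fold change of -1.02 and B16-F1 values of 0.143 and 0.0616 FPKM. Sparc, a collagen-binding glycoprotein, had 393 and 395 FPKM in the B16-F1R2 libraries and 300.3 and 281 FPKM in the B16-F1R2L libraries (log2 fold change -0.44, standard error 0.05, adjusted p = 0.0043), and Fn1, fibronectin, had a log2 fold change of -0.37 (adjusted p = 0.033), a call lost in 10 of 20 alternatives. Spp1, osteopontin, rose with 15.7 and 16.3 FPKM in the B16-F1R2 libraries and 31.7 and 32.6 FPKM in the B16-F1R2L libraries (log2 fold change 1.00, standard error 0.08, adjusted p = 0.0018). The 6 fibroblast markers summed to 18.1 to 18.3 FPKM in B16-F1R2 and 4.50 to 4.67 FPKM in B16-F1R2L, nearly all of it type I collagen in B16-F1R2. Emilin1, an elastic fiber glycoprotein, had 40.3 and 40.6 FPKM in the B16-F1R2 libraries and 35.5 and 30.4 FPKM in the B16-F1R2L libraries (log2 fold change -0.30, standard error 0.08, adjusted p = 0.042), and this call was lost in 11 of 20 alternatives. Emilin2 had a log2 fold change of -0.20 that did not pass the test (adjusted p = 0.6).

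Integrins and guidance receptors rose in part. Of 11 integrins 5 rose and none fell (1 and 1 rose with a library left out). Among them were Itgb3, a chain of the vitronectin receptor, with 2.52 and 2.65 FPKM in the B16-F1R2 libraries and 4.18 and 4.88 FPKM in the B16-F1R2L libraries (log2 fold change 0.78, standard error 0.12, adjusted p = 0.01), and Itga9 with 0.79 (adjusted p = 0.0031). In the list of cadherins and EMT transcription factors 2 of 8 members rose and 1 fell (12.5%, near the 10.5% of all genes tested), and none rose with either library left out. The gene that fell was Cdh2, which encodes N-cadherin (log2 fold change -0.29, standard error 0.05, adjusted p = 0.012), and its call was lost after rescaling and without B16-F1R2L replicate 2. Of 24 semaphorins, plexins and neuropilins 8 rose and none fell (3 and 4 rose with a library left out). The 8 include Plxna4, which likewise had to be higher to pass the level. Sema6d, a transmembrane semaphorin, had 7.77 and 8.07 FPKM in the B16-F1R2 libraries and 15.9 and 17.7 FPKM in the B16-F1R2L libraries (log2 fold change 1.07, standard error 0.08, adjusted p = 0.0014). Among 16 receptor tyrosine kinases 4 rose and 1 fell (7 and 1 after rescaling, and 1 and 2 rose and none fell with a library left out). The 4 include Ntrk3, which passed the level through B16-F1R2L alone and had to be higher. Ddr2, a collagen receptor, rose by 0.76 (adjusted p = 0.0088), Met, the receptor of hepatocyte growth factor, rose by 0.36 (adjusted p = 0.007), and Axl, the receptor of GAS6, had a log2 fold change of -0.69 (adjusted p = 0.023).

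Parts of the hypoxia and lipid lists changed. In the list of glycolysis and hypoxia response, 12 of 42 members rose and 3 fell (15 and none after rescaling). With a library left out, 6 and 5 rose and none fell. The share that fell, 7.14%, is under the 10.5% of all genes tested. Vegfa, the vascular growth factor, had 9.06 and 9.35 FPKM in the B16-F1R2 libraries and 17.2 and 20.3 FPKM in the B16-F1R2L libraries (log2 fold change 1.01, standard error 0.11, adjusted p = 0.0042). Ndrg1, a stress gene induced by low oxygen, had 23.6 and 20.4 FPKM in the B16-F1R2 libraries and 41.3 and 45.03 FPKM in the B16-F1R2L libraries (log2 fold change 0.97, standard error 0.08, adjusted p = 0.002), and Bnip3, a mitophagy receptor, had 36.4 and 33.1 FPKM in the B16-F1R2 libraries and 54.8 and 62.9 FPKM in the B16-F1R2L libraries (log2 fold change 0.76, standard error 0.08, adjusted p = 0.0046). The members that fell were the glycolytic enzymes Pgam1, Eno1 and Ldhb, with log2 fold changes of -0.17, -0.23 and -0.26, and their calls were lost in 14, 14 and 10 of 20 alternatives. Ddit4, given above, also belongs to this list. Of 27 members of cholesterol synthesis 10 rose and none fell, with a median of 0.15. The count was 15 after rescaling, with a median of 0.26, and 4 and 5 with a library left out. Msmo1, a sterol oxidase, had 77.8 and 76.5 FPKM in the B16-F1R2 libraries and 112 and 117 FPKM in the B16-F1R2L libraries (log2 fold change 0.57, standard error 0.04, adjusted p = 0.0014), and Sqle, squalene epoxidase, rose by 0.41 (adjusted p = 0.004). Of 36 members of fatty acid synthesis and activation 7 rose and 5 fell, with a median near 0. The share that fell, 13.9%, is near the 10.5% of all genes tested, and 19.4% rose, against 12.1%. After rescaling 11 rose and 1 fell. Without B16-F1R2 replicate 1, 1 rose and none fell, and without B16-F1R2L replicate 2, 1 rose and none fell. Fabp3, a fatty acid binding protein, had a log2 fold change of -0.76 (adjusted p = 0.029), a call lost in 6 of 20 alternatives. Of 49 lysosomal and proton pump genes 11 rose and 3 fell (20 and none after rescaling). With a library left out, 3 and 5 rose and none fell. The share of this list that fell, 6.12%, is under the 10.5% of all genes tested. The calcium channel gene Mcoln1 rose by 0.45 (adjusted p = 0.012).

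Many genes that build ribosomes fell. Of 41 members with symbols of rRNA processing (Utp, Nop, Nol, Rrp, Imp, Noc and Polr1), a family grouped after the values were seen, none rose and 26 fell, with a median of -0.28. Nop2, an rRNA methyltransferase, had 92.6 and 95.4 FPKM in the B16-F1R2 libraries and 65.8 and 56.3 FPKM in the B16-F1R2L libraries (log2 fold change -0.62, standard error 0.08, adjusted p = 0.0068). Nolc1, a nucleolar scaffold, had 80.9 and 81.3 FPKM in the B16-F1R2 libraries and 59.9 and 53.1 FPKM in the B16-F1R2L libraries (log2 fold change -0.52, standard error 0.06, adjusted p = 0.006). Nop58, a core protein of box C/D particles, had 145 and 141 FPKM in the B16-F1R2 libraries and 111 and 108 FPKM in the B16-F1R2L libraries (log2 fold change -0.38, standard error 0.04, adjusted p = 0.0044). Each was lower in both B16-F1R2L libraries. Under rescaling, median ratio scaling, quantile normalization, cyclic loess and a correction for GC content and length the median of the family was -0.17, -0.30, -0.28, -0.27 and -0.28, with 16 to 30 genes lower. The count was 5 without B16-F1R2 replicate 1 and 8 without B16-F1R2L replicate 2. Srm, spermidine synthase, also fell (log2 fold change -0.69, standard error 0.10, adjusted p = 0.0099).

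In other abundant gene groups some members fell, and these counts moved with the scaling and with single libraries. Of 81 cytosolic ribosomal proteins none rose and 31 fell, with a median of -0.24, and Rps19, a protein of the small subunit, had 1662 and 1488 FPKM in the B16-F1R2 libraries and 1241 and 1102 FPKM in the B16-F1R2L libraries (log2 fold change -0.43, standard error 0.08, adjusted p = 0.018), a call lost in 7 of 20 alternatives. Ribosomal protein genes have many near-identical copies in the genome, so that reads may be shared. The median was -0.13 after rescaling and -0.03 after cyclic loess, where 2 were higher and 3 lower, and 2 were lower in a fit of only the 4 libraries compared. After the correction for GC content and length 49 were lower and none higher, with a median of -0.14. None was lower with either library left out, while 50 were lower without B16-F1R2 replicate 2 and 9 without B16-F1R2L replicate 1. Of 77 respiratory chain genes 18 fell and none rose (median -0.14, and -0.02 after cyclic loess, with 3 higher and 4 lower), and none fell with either library left out. The GC and length correction gave 3 higher and 18 lower. Of 38 proteasome subunits 16 fell and none rose (median -0.16, and -0.07 after cyclic loess, with 3 lower), 19 fell after the GC and length correction and 1 and 1 with a library left out. Of 77 mitochondrial ribosomal proteins 23 fell and none rose (median -0.19, and -0.13 after cyclic loess, with 15 lower), 29 fell and 4 rose after the GC and length correction, and 0 and 3 fell with a library left out. The proteasome and mitochondrial ribosomal families were grouped after the values were seen. These groups are short or abundant. Over all members, the median log2 fold change went from 0.16 in the lowest of 5 equal classes of level to -0.10 in the highest, and from -0.07 in the class of shortest transcripts to 0.09 in that of the longest. The median level was 1500.0 FPKM and the median longest transcript 930 bases for ribosomal proteins, against 13.6 FPKM and 3114 bases over all members. The part of level and length in these groups was not tested beyond the alternatives given.

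**Figure D4:**
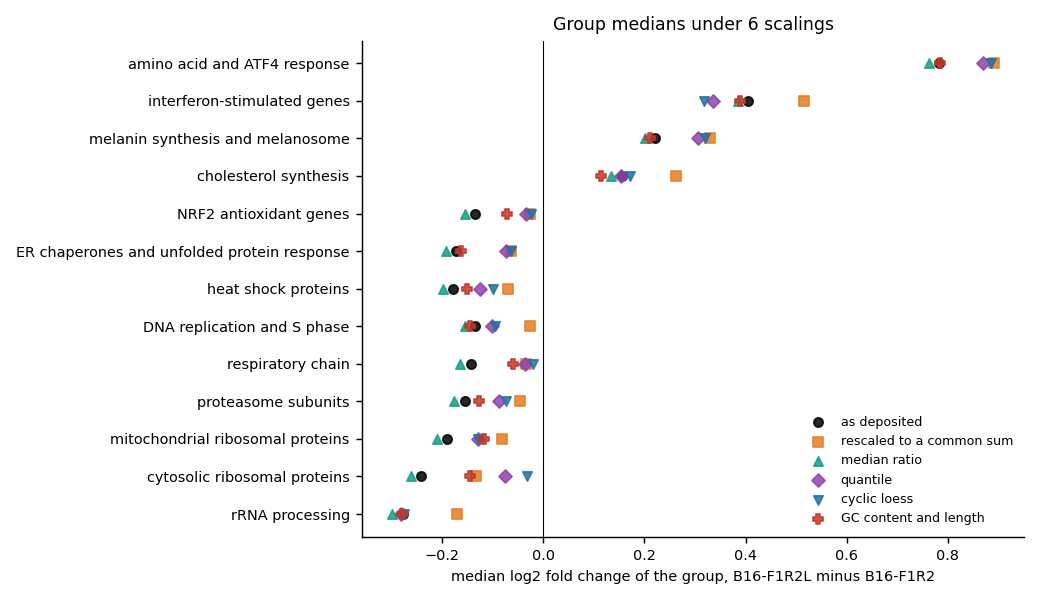
Median log2 fold change (x axis, B16-F1R2L minus B16-F1R2) of 13 gene groups (y axis) with the FPKM as deposited and after 5 other scalings or corrections (marker shapes). The amino acid and ATF4 response stays between 0.76 and 0.89, rRNA processing between -0.30 and -0.17, and the cytosolic ribosomal proteins and respiratory chain move toward 0 under cyclic loess.

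Some chaperones and antioxidant enzymes fell. Of 32 heat shock proteins 17 fell and 4 rose, with a median of -0.18 (-0.07 and 6 lower after rescaling). With a library left out, 2 and 4 fell and none rose. The share that rose, 12.5%, is near the 12.1% of all genes tested. Hspa8, the constitutive HSP70, had 2394 and 2181 FPKM in the B16-F1R2 libraries and 1571 and 1327 FPKM in the B16-F1R2L libraries (log2 fold change -0.66, standard error 0.09, adjusted p = 0.0087), and its partner Hsph1 had 72.9 and 70.6 FPKM in the B16-F1R2 libraries and 52.3 and 43.5 FPKM in the B16-F1R2L libraries (log2 fold change -0.59, standard error 0.08, adjusted p = 0.0088). Hspb7, a small heat shock protein of muscle, had 3.13 and 3.04 FPKM in the B16-F1R2 libraries and 0.524 and 0.492 FPKM in the B16-F1R2L libraries and is 1 of the 17, but it passed the level through B16-F1R2 alone and so had to be lower. Of 31 ER chaperones and unfolded protein response genes 12 fell and 4 rose (5 and 5 after rescaling, and 2 and 2 fell and 1 and 2 rose with a library left out), and the share that rose, 12.9%, is near the 12.1% of all genes tested. Hspa5, which encodes the main ER chaperone BiP, had 602 and 595 FPKM in the B16-F1R2 libraries and 460.2 and 412 FPKM in the B16-F1R2L libraries (log2 fold change -0.46, standard error 0.06, adjusted p = 0.0087), and Manf and Hyou1 had log2 fold changes of -0.43 and -0.41, the call of Hyou1 being lost in 6 of 20 alternatives. The 4 that rose were Ero1l, an ER oxidase, by 0.75, Herpud1, of ER-associated degradation, by 0.52, and the stress sensors Ern1 and Atf6 by 0.48 and 0.46. Of 44 antioxidant genes linked to the factor NRF2, 14 fell and 7 rose (9 and 9 after rescaling). With a library left out, 5 and 4 fell and 2 and 2 rose. In this list 15.9% rose, against 12.1% of all genes tested. Txnrd1, thioredoxin reductase, had 203 and 207 FPKM in the B16-F1R2 libraries and 141 and 132 FPKM in the B16-F1R2L libraries (log2 fold change -0.59, standard error 0.04, adjusted p = 0.0017). Srxn1, sulfiredoxin, had 74.8 and 71.8 FPKM in the B16-F1R2 libraries and 47.04 and 42.3 FPKM in the B16-F1R2L libraries (log2 fold change -0.72, standard error 0.06, adjusted p = 0.0023). Nfe2l2, which encodes NRF2 itself, rose slightly by 0.21 (adjusted p = 0.027), a call lost in 6 of 20 alternatives.

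**Figure D5:**
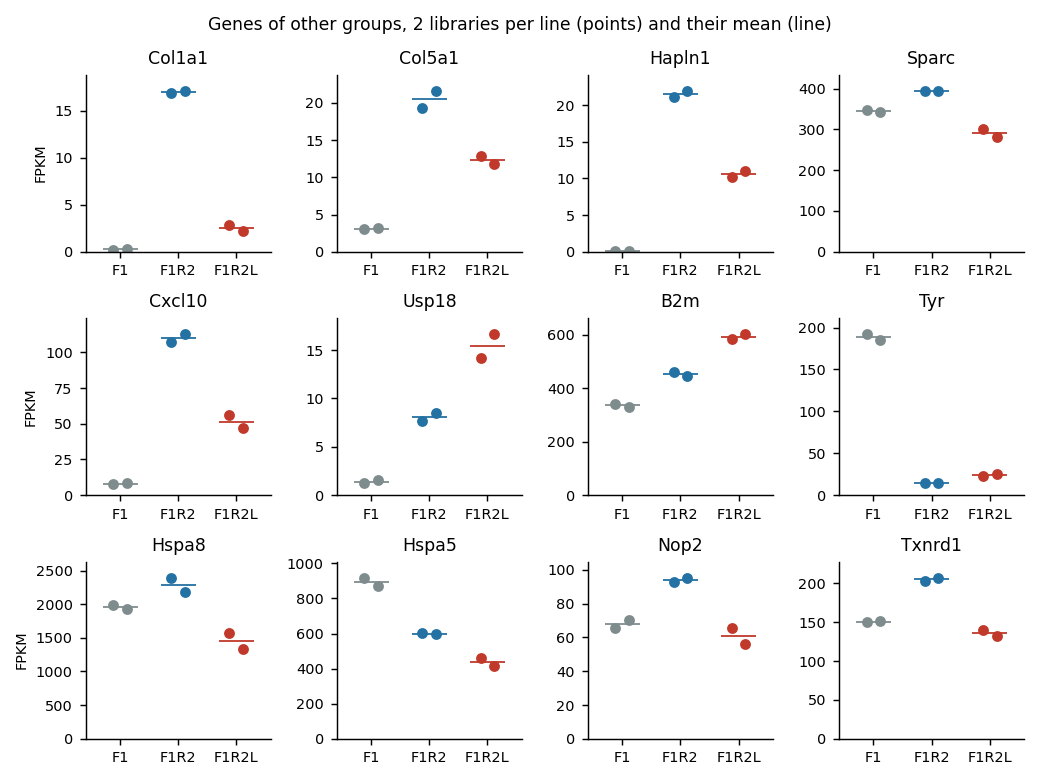
FPKM (y axis, linear from 0) of 12 genes of other groups in the 2 libraries of each line (x axis), with points for libraries and a line for their mean. B16-F1R2L lies below B16-F1R2 for Col1a1, Col5a1, Hapln1, Sparc, Cxcl10, Hspa8, Hspa5, Nop2 and Txnrd1, and above it for Usp18, B2m and Tyr.

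Some genes of the cell cycle fell by small amounts, and the counts moved with the scaling. Of 57 members of DNA replication 15 fell and none rose, with a median of -0.13, but after rescaling 5 fell and 2 rose, after the GC and length correction 26 fell and 1 rose, and 3 and 5 fell with a library left out. Ccne1, cyclin E1, had 46.5 and 44.6 FPKM in the B16-F1R2 libraries and 30.4 and 32.02 FPKM in the B16-F1R2L libraries (log2 fold change -0.54, standard error 0.05, adjusted p = 0.0028), and Orc1 and Cdc6, which license origins, had log2 fold changes of -0.58 (adjusted p = 0.007) and -0.39 (adjusted p = 0.0081). Of 57 mitotic genes 11 fell and none rose, with a median of -0.06, but after rescaling 2 fell and 3 rose, with a median of 0.05, and 2 and 3 fell with a library left out. Cdc20, an activator of the anaphase complex, had 95.2 and 92.6 FPKM in the B16-F1R2 libraries and 70.6 and 69.04 FPKM in the B16-F1R2L libraries (log2 fold change -0.43, standard error 0.04, adjusted p = 0.003). Gadd45a, a growth arrest gene, rose with 6.95 and 6.04 FPKM in the B16-F1R2 libraries and 13.6 and 14.2 FPKM in the B16-F1R2L libraries (log2 fold change 1.09, standard error 0.09, adjusted p = 0.0019).

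Single genes with large decreases came from several groups. Abca12, a lipid transporter, had 7.66 and 7.89 FPKM in the B16-F1R2 libraries and 3.40 and 3.63 FPKM in the B16-F1R2L libraries (log2 fold change -1.12, standard error 0.07, adjusted p = 0.001), against 16.7 and 17.5 FPKM in B16-F1. Pdgfa, a platelet-derived growth factor, had 6.69 and 6.60 FPKM in the B16-F1R2 libraries and 2.9998 and 3.70 FPKM in the B16-F1R2L libraries (log2 fold change -0.97, standard error 0.15, adjusted p = 0.01). Each of these genes was lower in both B16-F1R2L libraries than in either B16-F1R2 library. Nppb, a natriuretic peptide, had 32.02 and 31.9 FPKM in the B16-F1R2 libraries and 18.03 and 16.8 FPKM in the B16-F1R2L libraries (log2 fold change -0.87, standard error 0.07, adjusted p = 0.0019). Gja1, connexin 43, had 6.11 and 6.10 FPKM in the B16-F1R2 libraries and 3.42 and 3.38 FPKM in the B16-F1R2L libraries (log2 fold change -0.83, standard error 0.08, adjusted p = 0.0035). Sod3, the extracellular superoxide dismutase, had 6.53 and 7.79 FPKM in the B16-F1R2 libraries and 3.84 and 3.46 FPKM in the B16-F1R2L libraries (log2 fold change -0.95, standard error 0.17, adjusted p = 0.016). Cyr61, a matricellular target of YAP, had 12.8 and 15.5 FPKM in the B16-F1R2 libraries and 7.66 and 8.55 FPKM in the B16-F1R2L libraries (log2 fold change -0.79, standard error 0.18, adjusted p = 0.029), a call lost in 7 of 20 alternatives. Rpph1, the RNA of RNase P, had 114 and 104 FPKM in the B16-F1R2 libraries and 62.9 and 48.2 FPKM in the B16-F1R2L libraries (log2 fold change -0.98, standard error 0.15, adjusted p = 0.01), a transcript without a poly(A) tail in a polyadenylated library.

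In 3 pathway and gene family lists no member was called, namely the Wnt pathway (20 members), ephrins and Eph receptors (9) and X-linked lineage and cancer-testis genes (7). At an unadjusted p under 0.05 by limma the numbers were 4, 2 and 1, against 39.5% of all members. The 3 leukocyte and 2 endothelial marker genes that were members were not called either, and none had an unadjusted p under 0.05. Among these markers Cd79a was called higher in 4 of 20 alternatives and Pecam1 in 1 of 19. Other settings gave calls in the 3 lists, with 3 Wnt genes higher after rescaling, 2 higher without B16-F1R2L replicate 1, 1 higher after the GC and length correction and 1 lower after cyclic loess or quantile normalization, 1 Eph or ephrin gene lower after that correction, and 1 X-linked gene higher after rescaling. Over the chromosomes, for the 10260 members with 1 position, the median log2 fold change ran from -0.02 on chromosome 5 to 0.07 on chromosome 6. Chromosome 6 had 19.6% of its 509 members higher and chromosome 15 had 18% of 406. No run of 10 or more neighboring genes had a running median, over 11 genes, that lay 0.3 or more from the median of all members. With runs of 5 or more genes allowed there were 2. These were Hint2 to Reck on chromosome 4 (shift 0.53) and Trim68 to Trim12c on chromosome 7 (shift 0.32).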

How the data were processed

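RNA of 3 mouse melanoma lines was measured in 2 libraries each. The authors deposited 1 table of FPKM values, not pooled over replicates, made from stranded single-end reads aligned to mm9. The submitters' processing notes name FastQC 0.10.1, TopHat2 2.0.10, Bowtie 1.0.0, SAMtools 0.1.1.9, Cuffnorm and DESeq2, and the gene annotation is not given in the sources used here. FPKM are not counts and the table gives no read totals, so the depth is unknown here and no interval that needs it was computed.

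Values were compared as log2(FPKM + 0.1), a scale that understates the change of low genes, with limma 3.58.1 in R 4.3.3 (lmFit and eBayes with a trend), all 6 libraries in the fit so that the lines share 1 estimate of the spread, no replicate block, and p-values adjusted by Benjamini-Hochberg over 11379 genes, those at 1 FPKM or more in 2 libraries. The members and gene lists were chosen with earlier results of these data known. Genes were named as the 12 largest called changes each way without overlap and with at least 5 FPKM in the higher line, the 6 largest with at least 50 FPKM, up to 4 called genes and the 2 of highest level per list, and the EMILIN family, and some of these genes are not reported here. Other members of a list were chosen after their values were seen. Gene positions came from NCBIM37 by symbol. The steps were tested on simulated data. Python 3.11.15, pandas 2.3.3, numpy 2.4.6 and matplotlib 3.10.9 served for lists, promoters and figures. Alternatives were other pseudocounts, filters, scalings, eBayes without a trend, the 4 libraries alone, the block, a minimum fold change and each library left out. The correction for GC content and length (robust regression on splines, MASS 7.3.60.0.1) and cyclic loess were chosen after seeing the data.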

Additional observations from a re-analysis of the deposited data

How the results depend on the processing

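The 1359 higher and 1175 lower genes became 834 and 690 without a filter on low values, 2055 and 476 after rescaling to a sum of 1000000, 863 and 633 with only the 4 libraries compared, and 105 and 14 where a log2 fold change of 1 or more was required too. Without a trend in eBayes 637 were lower, and 62.8% of the called genes were higher. With each library left out in turn, the counts ran from 284 to 887 higher and from 133 to 966 lower. The lowest counts came without B16-F1R2 replicate 1. Leaving out a B16-F1 library, which takes no part in the comparison but adds to the pooled spread, gave 864 and 627 (replicate 1) or 872 and 634 (replicate 2). Without B16-F1R2L replicate 1 there were 887 higher and 966 lower genes. Other pseudocounts, a filter of 5 FPKM, median ratio scaling, quantile normalization, adjustment over the members alone, cyclic loess and the correction for GC content and length kept both counts within 1.5 times.

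With a replicate block, 1196 genes were higher and 1088 lower. The labels give the lines the same replicate numbers. The deviations of same-numbered B16-F1R2 and B16-F1R2L libraries had a correlation of 0.0224 over genes, and B16-F1 was not compared. As this is 1 value over mostly small differences, it cannot decide if same-numbered libraries were handled together.

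Of the 270 called genes among the named genes, none reversed, and 94 kept their call under every alternative other than the minimum fold change. The named genes were chosen mostly for a large change or a high level, so they do not stand for all 2534 called members. With 2 libraries a line, small differences rest on the pooled spread. Depth is unknown, so counting error at low FPKM could not be given.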
